A study of Mus musculus with 12 samples.

Results

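The 10 late cornified envelope genes described here are the 6 genes of group 3 (*Lce3a*, *Lce3b*, *Lce3c*, *Lce3d*, *Lce3e* and *Lce3f*) and 4 genes of group 1 (*Lce1a1*, *Lce1b*, *Lce1g* and *Lce1m*), out of 56923 genes counted in the back skin of 12 mice. They were chosen by name, with no threshold on a value, by a choice made with their counts in control and imiquimod-treated mice known. Their levels with and without imiquimod are therefore given as a description, without a test. All 10 passed the filter on low counts, the *Lce3* genes through the imiquimod-treated mice. The other 11 Lce genes of the annotation, *Lce6a* and the remaining 10 *Lce1* genes, were also measured and were tested.

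Late cornified envelope (LCE) proteins are small proteins rich in cysteine and glycine that keratinocytes make as they leave the living layers of the epidermis. Transglutaminases crosslink them, with loricrin, involucrin and the small proline-rich proteins, onto the inner face of the cornified envelope, the protein shell that replaces the plasma membrane of the dead surface cells. The genes lie side by side in the epidermal differentiation complex. In human skin, group 1 genes are expressed in normal epidermis, whereas group 3 genes are low there and are raised after injury and in psoriasis.

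Back skin was collected from female mice aged 8 to 10 weeks on a C57BL/6 background after 6 days of daily cream on the shaved skin, with 3 mice in each of 4 groups. WT control and WT IMQ mice were wild-type littermates given vehicle cream or 5% imiquimod (IMQ), a Toll-like receptor 7 agonist that produces psoriasis-like lesions. Control and IMQ mice labelled *Lcn2*-/- were given the same creams and are described as knockout animals for *Lcn2*, the gene of lipocalin 2. In the repository the sample titles of these mice read LCN2 KO, whereas their genotype label says knockdown. The controls carry the treatment label none, and the stated RNA protocol speaks of retina although the tissue is given as skin.

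Reads on the targeted gene were not absent under its label, and read counts do not show whether its protein was made. WT control mice had 136, 201 and 86 *Lcn2* counts and WT IMQ mice 1010, 2723 and 1572, whereas the control mice labelled *Lcn2*-/- had 320, 173 and 357 and the IMQ mice labelled *Lcn2*-/- had 561, 511 and 830. Reads on *Lcn2* were thus present in every mouse of that label, so each genotype is given below as the label of the library. Against WT mice, the log2 difference of *Lcn2* was 0.866 in control mice and -1.491 in IMQ mice of that label. The adjusted p values in edgeR's quasi-likelihood test were 0.794 and 0.0525. The paper lists *Lcn2* among the genes lower in IMQ-treated knockout skin. It also measured LCN2 protein by Western blot and *Lcn2* RNA by qPCR in wild-type and knockout mice. Libraries held from 16448226 to 28592110 counted reads. Calls required an adjusted p under 0.05 over all genes in edgeR's quasi-likelihood test together with a more than 2-fold change. Markers of epidermis were present in every library, and no marker of the 10 cell type lists was at 0 in any group. In WT IMQ against WT control mice, edgeR's quasi-likelihood test called 7 of 7 neutrophil markers, 5 of 7 suprabasal and 4 of 8 basal keratinocyte markers, 1 of 6 macrophage markers and 1 of 5 endothelial markers higher. It called 5 of 9 hair follicle, 5 of 6 skeletal muscle, 5 of 6 T cell, 2 of 6 adipocyte and 1 of 8 basal keratinocyte markers lower, and no fibroblast marker in either direction. Over all genes, 7.15% were called higher and 7.77% lower. In bulk skin, fewer cells of a type and less RNA per cell cannot be told apart, and this holds for every gene below.

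The 21 Lce genes lie within 399 kb of mouse chromosome 3 (GENCODE M21, GRCm38), among 31 annotated genes. The run starts with *Lce6a* and continues with 13 *Lce1* genes, of which *Lce1a1* (chr3:92646535-92648307, minus strand) and *Lce1b* (chr3:92655650-92656926, minus strand) come early and *Lce1g* (chr3:92750148-92752338, minus strand) lies in the middle. A gap of 74 kb separates *Lce1l* from *Lce3a* (chr3:92925287-92926230, minus strand). The other *Lce3* genes follow on the plus strand, *Lce3b* at chr3:92932979-92934097, *Lce3c* at chr3:92944486-92945733, *Lce3d* at chr3:92957390-92958505, *Lce3e* at chr3:92967061-92968281 and *Lce3f* at chr3:92992226-92993426. *Lce1m* (chr3:93017810-93019060, minus strand) stands alone beyond them, 24.4 kb after *Lce3f*.

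The coding sequences show how close the paralogs are, which bears on how reads can be assigned to them. Each of the 6 *Lce3* genes has a coding length of 294 bases, and the 15 *Lce3* pairs were between 94.6% and 99.3% identical (median 98%), with *Lce3d* and *Lce3f* the closest pair. The *Lce1* genes other than *Lce1m* were between 73.9% and 95.7% identical to each other (median 84.9%). *Lce1m*, with the longer coding length of 546 bases, was only 43.4% to 57.9% identical to the other *Lce1* genes. These identities were computed on GENCODE M21 transcripts.

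Over whole transcripts cut into windows of 100 bases, the share of windows found identically in another Lce gene was 43% for *Lce3f*, 36.4% for *Lce3e*, 28.3% for *Lce3d* and 24.1% for *Lce3c*. It was 1.08% for *Lce3b* and 0% for *Lce3a*. Among the *Lce1* genes it was 2.15% for *Lce1a1*, 1.69% for *Lce1g*, 1.46% for *Lce1b* and 0% for *Lce1m*. No window of 50, 75 or 100 bases was shared between any *Lce3* and any *Lce1* gene. How reads that match several genes were counted is not given in the sources used here, so the split of counts among *Lce3c*, *Lce3d*, *Lce3e* and *Lce3f* is uncertain, while the separation of *Lce3* from *Lce1* does not rest on it.

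**Figure D1:**
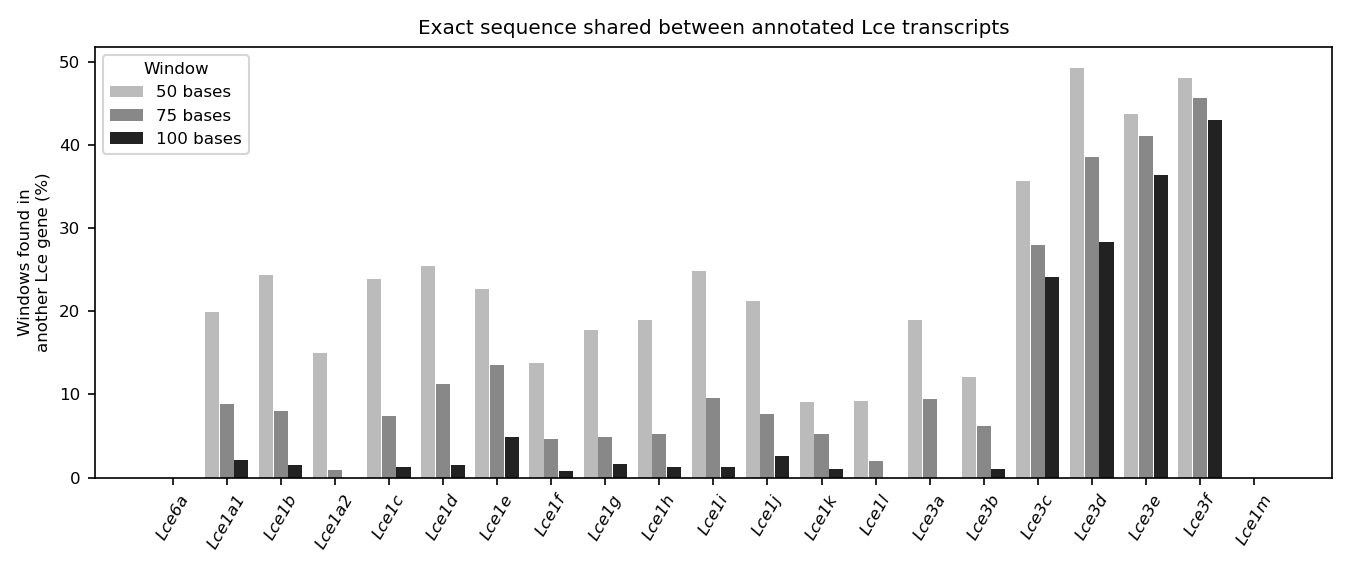
Percent of all windows of 50, 75 or 100 bases in the transcripts of each of the 21 Lce genes that occur identically in another Lce gene. Lce3c to Lce3f keep 24.1% to 43% of their 100-base windows in common with a paralog, and Lce1m shares none at any length.

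The 100 bases in front of each *Lce3* gene, and of 3 *Lce1* genes, are shown because the *Lce3* genes were raised together (RefSeq transcript starts, GRCm38.p6, 5′ to 3′ on the strand of the gene). Capitals mark matches to a C/EBP motif (TTNCNNAA) or a TATA motif (TATAAA), searched on both strands, each motif on its own, so that matches may overlap.
Lce3a, chr3:92926231-92926330, minus strand: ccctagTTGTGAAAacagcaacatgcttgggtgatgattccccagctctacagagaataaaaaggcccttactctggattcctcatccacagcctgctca
Lce3b, chr3:92932879-92932978, plus strand: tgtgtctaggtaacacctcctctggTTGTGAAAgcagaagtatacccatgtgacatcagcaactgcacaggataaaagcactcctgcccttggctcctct
Lce3c, chr3:92944386-92944485, plus strand: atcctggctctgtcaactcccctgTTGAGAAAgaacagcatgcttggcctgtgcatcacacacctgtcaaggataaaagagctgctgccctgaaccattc
Lce3d, chr3:92957290-92957389, plus strand: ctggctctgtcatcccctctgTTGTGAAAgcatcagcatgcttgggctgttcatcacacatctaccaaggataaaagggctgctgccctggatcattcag
Lce3e, chr3:92966961-92967060, plus strand: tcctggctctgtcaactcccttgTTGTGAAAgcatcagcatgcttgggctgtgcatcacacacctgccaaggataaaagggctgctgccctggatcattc
Lce3f, chr3:92992117-92992216, plus strand: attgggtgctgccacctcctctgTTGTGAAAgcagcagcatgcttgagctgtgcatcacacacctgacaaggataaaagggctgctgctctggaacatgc
Lce1a1, chr3:92648308-92648407, minus strand: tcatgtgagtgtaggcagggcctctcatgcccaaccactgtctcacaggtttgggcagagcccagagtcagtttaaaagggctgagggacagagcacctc
Lce1g, chr3:92752339-92752438, minus strand: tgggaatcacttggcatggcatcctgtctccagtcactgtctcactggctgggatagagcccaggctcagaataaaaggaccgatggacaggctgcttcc
Lce1m, chr3:93019062-93019161, minus strand: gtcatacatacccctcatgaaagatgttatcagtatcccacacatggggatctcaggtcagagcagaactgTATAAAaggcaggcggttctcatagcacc

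Every one of the 6 *Lce3* promoters held a C/EBP match whose first base was 75 to 94 bases before the transcript start, TTGTGAAA in 5 of them and TTGAGAAA in *Lce3c*. *Lce3f* held a further match at 155 bases. Over the 250 bases before the start, the motif was found in 6 of 6 *Lce3* promoters, in 2 of 13 *Lce1* promoters (*Lce1j* and *Lce1k*) and in *Lce6a*, against 36.8% of 32851 mouse promoters searched the same way. The TATA motif was found in 1 of 6 *Lce3* promoters (*Lce3e*, at 243 bases) and 2 of 13 *Lce1* promoters (12.4% of all). The latter were *Lce1d* at 30 and *Lce1m* at 29 bases, and *Lce6a* held a match at 218 bases. Only the exact letters TATAAA were counted. AP-1 (TGANTCA, 6.75% of all), GRHL (AACCNGTT, 1.79%) and NF-kB (GGGA and CC with 4 bases between, 17.6%) letters were found in none of the 20 Lce promoters, and STAT letters (TTCNNNGAA, 7.02%) in 1, that of *Lce1l*. A match is a string of letters and not a measured binding site. Over the printed 100 bases the *Lce3* promoters were 45% to 90.1% identical to each other (median 66.3%), so their matches there are not independent of each other.

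In WT control skin the *Lce3* genes were close to the limit of detection. Levels are given as CPM, read counts scaled to normalized library size, and 3 counts correspond to between 0.0985 and 0.202 CPM. *Lce3a* was at 0.231, 0 and 0.16 CPM in the 3 WT control mice and at 58.7, 46 and 41.1 CPM in the 3 WT IMQ mice. *Lce3b* was at 0, 0.043 and 0.266 CPM in WT control and 106, 62.9 and 78 CPM in WT IMQ mice. Both genes were thus at the level of a few reads without IMQ and above 40 CPM with it, and no control mouse came near an IMQ mouse. *Lce3c* was at 1.76, 0.387 and 1.59 CPM in WT control and 142, 93.8 and 96.2 CPM in WT IMQ mice. *Lce3d* was at 1.2, 0.258 and 1.17 CPM in WT control and 132, 84.5 and 75.2 CPM in WT IMQ mice. These neighbouring genes had the same lowest mouse in the control group and the same highest mouse in the IMQ group. *Lce3e* was at 0.555, 0.215 and 0.372 CPM in WT control and 83.5, 59.1 and 51.2 CPM in WT IMQ mice. *Lce3f* was at 0.462, 0 and 0.16 CPM in WT control and 74.4, 60.2 and 51.2 CPM in WT IMQ mice. In all 6 genes WT IMQ mouse 1 was the highest of its group.

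The size of the *Lce3* difference depends on few control reads. Counts pooled over the 3 mice were 8 against 2502 for *Lce3a*, a ratio after normalization of 383 (95% counting interval 194 to 888), and 6 against 4290 for *Lce3b*, a ratio of 876 (402 to 2390). For *Lce3f* they were 13 against 3181, a ratio of 300 (175 to 563), and for *Lce3e* 24 against 3315, a ratio of 169 (113 to 264). *Lce3d* and *Lce3c*, with 54 and 77 control counts, had the smaller ratios of 113 (86.5 to 151) and 91.1 (72.8 to 116). The genes with the fewest control reads thus had the higher ratios and the wider intervals, which cover counting error only. The fitted log2 fold changes ran from 6.49 (SE 0.44) for *Lce3c* to 9.67 (SE 0.67) for *Lce3b*, with a median of 7.80 against -0.0246 over all 18529 genes tested. The median was 8.43 without WT control mouse 1, which had the most *Lce3* reads of its group, and 7.33 without WT control mouse 2, which had the fewest. Control and IMQ values were separate for all 6, where 20.1% of all genes separated upwards, and nothing is read from this count because the IMQ levels were known when the genes were listed.

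**Figure D2:**
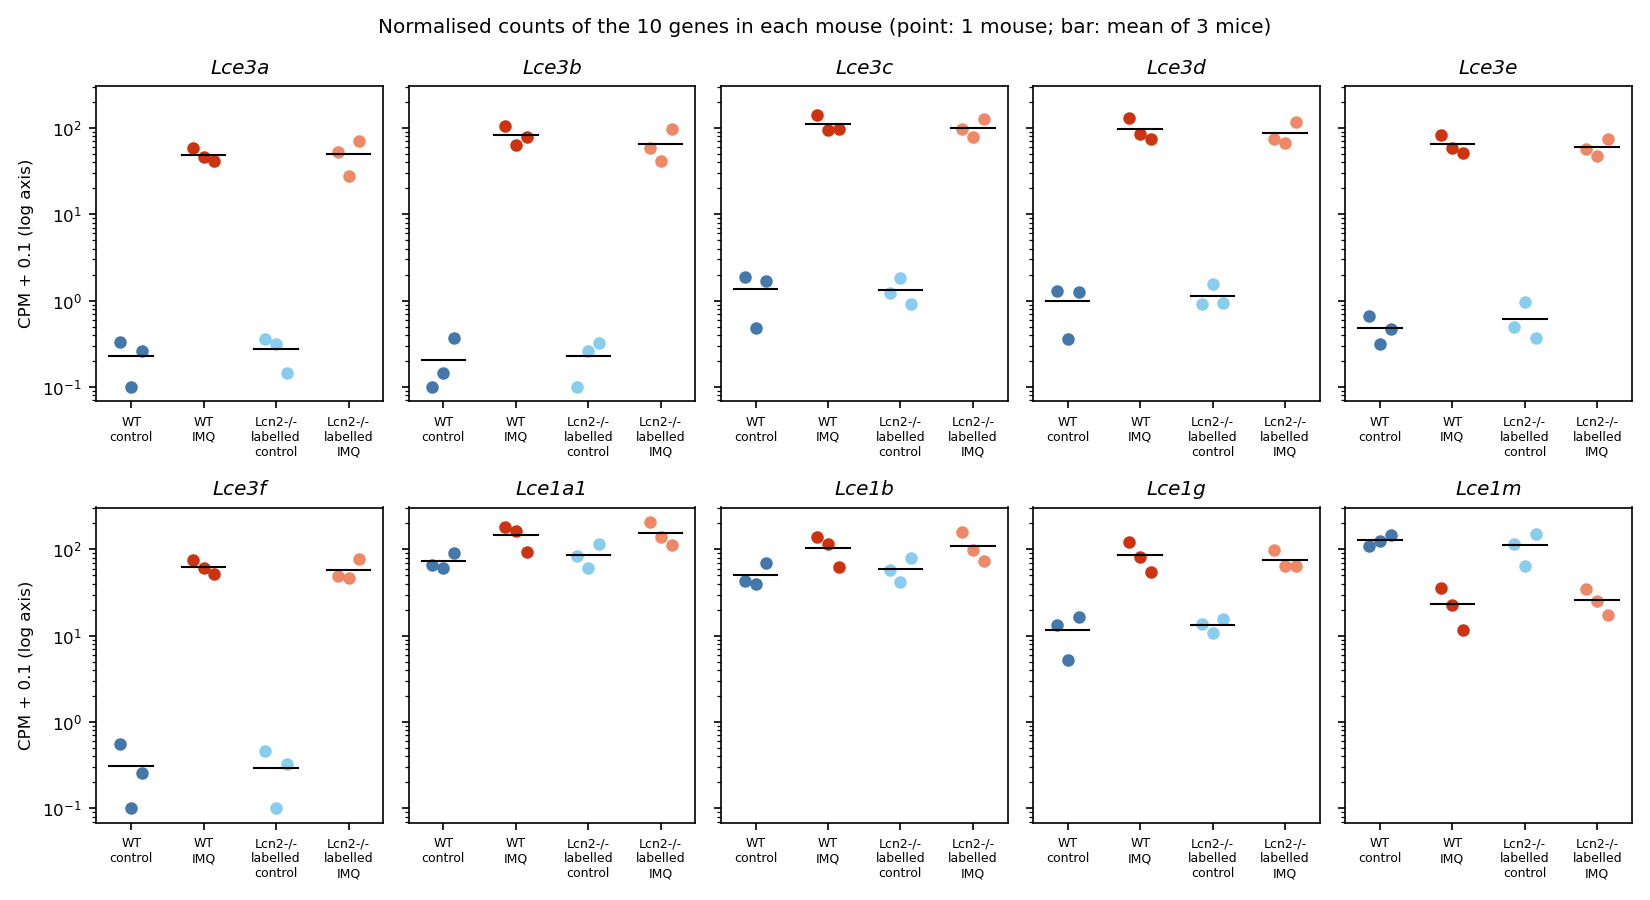
CPM plus 0.1 on a log axis for the 10 genes in each mouse, with a bar at the mean of the 3 mice of a group. The Lce3 genes are at most 1.76 CPM in control mice and at least 27.3 CPM in IMQ mice, and Lce1m is the gene whose IMQ mice lie below its control mice.

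The 4 *Lce1* genes did not share a pattern. *Lce1a1* was at 65.7, 61 and 90.8 CPM in WT control and 181, 161 and 92.5 CPM in WT IMQ mice. *Lce1b* was at 43.4, 39.9 and 69 CPM in WT control and 139, 114 and 62.1 CPM in WT IMQ mice. For both genes WT IMQ mouse 3 was little above or within the control range, so that the group means, 145 ± 46.4 against 72.5 ± 16 CPM for *Lce1a1* and 105 ± 39.4 against 50.8 ± 15.9 CPM for *Lce1b* (SD, n = 3), differed about as much as the IMQ mice did among themselves. Their log2 fold changes were 1.00 (SE 0.31) and 1.05 (SE 0.37). *Lce1g* was at 13.1, 5.16 and 16.3 CPM in WT control and 122, 80.9 and 55.1 CPM in WT IMQ mice, a log2 fold change of 2.90 (SE 0.40). Its lowest IMQ mouse was above its highest control mouse. *Lce1g* thus changed more than *Lce1a1*, and its counts were 0.155 ± 0.0617 of those of *Lce1a1* in WT control and 0.592 ± 0.0866 in WT IMQ mice (SD, n = 3).

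*Lce1m* went the other way. It was at 109, 126 and 148 CPM in WT control and 35.5, 22.5 and 11.7 CPM in WT IMQ mice, with a log2 fold change of -2.46 (SE 0.41). Every IMQ mouse was below every control mouse, where 20.6% of all genes separated downwards. It made up 24.2 ± 3.59% of all Lce counts in WT control mice and 1.46 ± 0.346% in WT IMQ mice (SD, n = 3). No 50-base window of *Lce1m* is shared with another Lce gene, so its counts do not depend on how reads of close paralogs were assigned.

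Divided by exonic length, the levels can be set in order between genes. The places of *Lce3c*, *Lce3d*, *Lce3e* and *Lce3f* are uncertain, because how reads matching several genes were counted is not given. In WT control mice *Lce1m* led with 135 ± 20.1 CPM per kb, followed by *Lce1a1* with 103 ± 22.7 and *Lce1b* with 78.5 ± 24.6 CPM per kb (SD, n = 3), and neighbours in this order overlapped. *Lce1g*, with 12.5 ± 6.22 CPM per kb, overlapped neither with *Lce1b* above it nor with *Lce3c* below it. The *Lce3* genes followed from 2.20 ± 1.32 CPM per kb for *Lce3c* down to 0.183 ± 0.254 for *Lce3b*, with overlap between neighbours. In WT IMQ mice *Lce1a1* (205 ± 65.8 CPM per kb), *Lce3d* (198 ± 61.9) and *Lce3c* (195 ± 48.2) were level within their spread. *Lce1b*, *Lce3b*, *Lce3e*, *Lce3f*, *Lce1g* and *Lce3a* followed between 162 and 88.5 CPM per kb, each overlapping with its neighbour. *Lce1m* was last with 24.5 ± 12.6 CPM per kb, below every value of the gene before it. Without IMQ the order therefore separated *Lce1* from Lce3, and with IMQ it did not.

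The other *Lce1* genes, which were not among those chosen, lay between these patterns. Of these 10 genes, 8 were called higher in WT IMQ mice by edgeR's quasi-likelihood test and none lower, where 7.15% of all genes were called higher and 7.77% lower, and their median log2 fold change was 1.58. *Lce1h* rose by 2.14 on the log2 scale (adjusted p = 0.00276), *Lce1f* by 2.10 (adjusted p = 0.00101), *Lce1k* by 2.05 (adjusted p = 0.00181) and *Lce1e* by 1.97 (adjusted p = 0.001). *Lce1l*, the last *Lce1* gene before the gap, had a log2 fold change of 0.275 (adjusted p = 0.582) and *Lce1a2* one of 0.746 (adjusted p = 0.0984). *Lce6a* rose by 1.16 (adjusted p = 0.0295), a call lost without any 1 of WT control mice 1 and 2 and WT IMQ mice 1 and 2 (log2 fold changes over all mice left out 0.891 to 1.42). Along the chromosome, the difference was small at *Lce1a1* to *Lce1c*, higher from *Lce1d* to *Lce1k*, near 0 at *Lce1l*, highest over the 6 *Lce3* genes and negative at *Lce1m*.

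**Figure D3:**
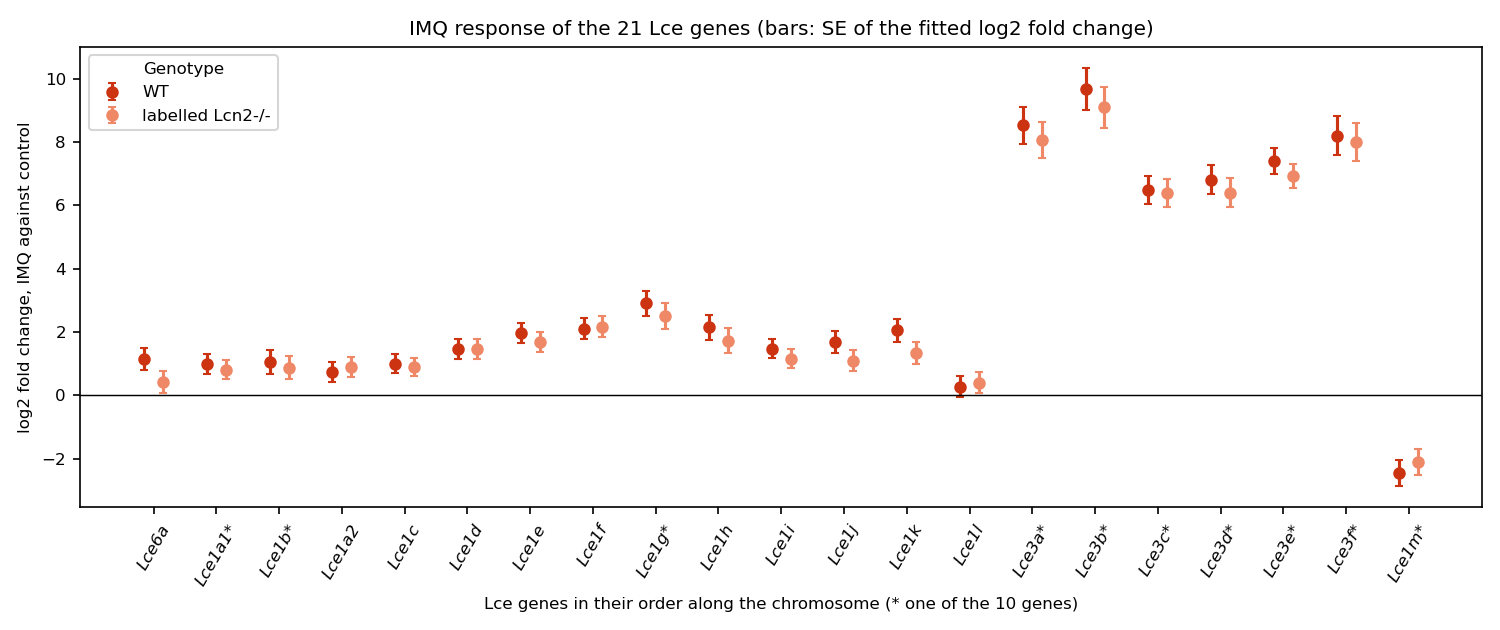
Log2 fold change of IMQ against control for the 21 Lce genes in their chromosomal order, for WT mice and mice labelled Lcn2-/-. Bars are the SE derived from the F statistic. The 6 Lce3 genes lie between 6.38 and 9.67 in both genotypes, 20 of 21 genes are above 0 and Lce1m alone is below 0.

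In the mice labelled *Lcn2*-/- the *Lce3* genes were likewise near the limit of detection in control skin and higher in every IMQ mouse. Markers of other cells moved with IMQ here too, and edgeR's quasi-likelihood test called 6 of 6 macrophage, 7 of 7 neutrophil, 4 of 5 endothelial, 5 of 7 suprabasal and 3 of 8 basal keratinocyte markers and 1 of 7 fibroblast markers higher. It called 9 of 9 hair follicle, 1 of 6 skeletal muscle, 1 of 6 adipocyte and 1 of 8 basal keratinocyte markers lower and 0 of 6 T cell markers in either direction, of which 2 had an unadjusted p under 0.05. Over all genes, 7.38% were called higher and 6.27% lower. *Lce3a* was at 0.263, 0.213 and 0.0447 CPM in the control and 53.2, 27.3 and 70 CPM in the IMQ mice of that label. *Lce3b* was at 0, 0.16 and 0.223 CPM in control and 58.8, 41 and 96.3 CPM in IMQ mice. *Lce3c* was at 1.12, 1.71 and 0.804 CPM in control and 95.9, 77.8 and 126 CPM in IMQ mice. In each of these genes IMQ mouse 3 of this genotype was the highest and IMQ mouse 2 the lowest. *Lce3d* was at 0.821, 1.44 and 0.848 CPM in control and 74.7, 67 and 117 CPM in IMQ mice. *Lce3e* was at 0.394, 0.853 and 0.268 CPM in control and 57.2, 47.6 and 74.4 CPM in IMQ mice. *Lce3f* was at 0.361, 0 and 0.223 CPM in control and 48.9, 46.5 and 77.1 CPM in IMQ mice. The same IMQ mouse was again the highest for all 3 genes, and control and IMQ mice were far apart in each. The pooled count ratios ran from 85 (95% counting interval 68.5 to 107) for *Lce3c* to 584 (296 to 1350) for *Lce3b*, and the log2 fold changes from 6.38 to 9.09 with a median of 7.47.

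*Lce1a1* was at 83, 61.4 and 117 CPM in the control and 209, 138 and 112 CPM in the IMQ mice labelled *Lcn2*-/-. *Lce1b* was at 58.1, 41.4 and 79.9 CPM in control and 158, 97.9 and 72.6 CPM in IMQ mice. Groups overlapped for both genes, with log2 fold changes of 0.814 (SE 0.31) and 0.872 (SE 0.36). *Lce1g* was at 13.6, 10.7 and 15.5 CPM in control and 97.1, 63.9 and 64.7 CPM in IMQ mice, a log2 fold change of 2.50 (SE 0.40). *Lce1m* was at 116, 64.9 and 152 CPM in control and 35.1, 25.3 and 17.4 CPM in IMQ mice, a log2 fold change of -2.10 (SE 0.41). Neither *Lce1g* nor *Lce1m* overlapped between treatments, where 23.1% of all genes separated upwards and 22.8% downwards. Of the 10 other *Lce1* genes, 8 rose with an adjusted p under 0.05 (median log2 fold change 1.24) and 7 of them were called at more than 2-fold, where 7.38% of all genes were called higher and 6.27% lower, *Lce1f* by 2.17 (adjusted p = 0.00127) and *Lce1h* by 1.73 (adjusted p = 0.00987) among them. *Lce1l* had a log2 fold change of 0.404 (adjusted p = 0.409) and *Lce6a* one of 0.428 (adjusted p = 0.392). This contrast and that in WT mice share no mice.

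For the genotype labels in IMQ-treated skin, the IMQ mice of both labels were compared, which is a comparison of labels since *Lcn2* reads were present under each. No Lce gene was called, where 0.766% of all genes were called higher and 0.739% lower by edgeR's quasi-likelihood test. None of the 21 had an unadjusted p under 0.05, where 27% of all genes did, DESeq2 called none, and for none did the IMQ groups separate, where 16% of all genes separated upwards and 17.3% downwards. *Lce3a* differed by 0.0453 on the log2 scale (adjusted p = 0.95) and *Lce3c* by -0.149 (adjusted p = 0.804). The 5 *Lce3* genes other than *Lce3a* were nominally lower in the mice labelled *Lcn2*-/-, the most in *Lce3b* with -0.330 (adjusted p = 0.603), for which 2 SE either side reached from -1.09 to 0.432. Among *Lce1* genes, *Lce1a1* differed by 0.0803 (adjusted p = 0.895), *Lce1b* by 0.0600 (adjusted p = 0.934), *Lce1g* by -0.194 (adjusted p = 0.768) and *Lce1m* by 0.160 (adjusted p = 0.829, 2 SE either side from -0.634 to 0.954). With 3 mice a group these intervals leave room for differences of up to about 2-fold, so the lack of a call does not show equal levels. The lowest adjusted p of the family was that of *Lce6a*, 0.336, at a log2 difference of -0.541.

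In control skin the labels gave no call either among the 21 Lce genes, with adjusted p of 0.949 and above, where 0.0108% of all genes were called in either direction. None had an unadjusted p under 0.05, where 6.6% of all genes did, and DESeq2 called none. The intervals were widest for the *Lce3* genes, from -2.28 to 2.77 on the log2 scale for *Lce3b*, because so few reads were counted on them. The genotype-by-IMQ interaction, which compares the IMQ response of one label with that of the other, was called for no Lce gene by edgeR or DESeq2, where 1.07% of all genes were called higher and 0.572% lower, and no unadjusted p was under 0.05, where 24.1% of all genes had one. It lay between -0.574 and -0.105 on the log2 scale for the *Lce3* genes (adjusted p from 0.653 to 0.934) and between -0.401 and 0.359 for the 4 *Lce1* genes (adjusted p from 0.68 to 0.864). Under every alternative setting the lowest adjusted p of the 10 genes was 0.335 between IMQ mice, 0.803 between control mice and 0.421 for the difference of responses. In the IMQ mice, markers of other cells moved with the genotype label. The 7 fibroblast markers summed to between 10100 and 10700 CPM in WT IMQ mice and to between 19800 and 20600 CPM in IMQ mice labelled *Lcn2*-/-. Of these markers, 3 of 7 were called higher, where 0.766% of all genes were. Basal keratinocyte markers summed to between 16000 and 23100 and to between 9650 and 13700 CPM, and suprabasal markers to between 17200 and 20000 and to between 7780 and 17700 CPM, with no call above 2-fold and an adjusted p under 0.05 for 3 of 8 basal markers. The part of these differences in the Lce levels was not tested.

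**Figure D4:**
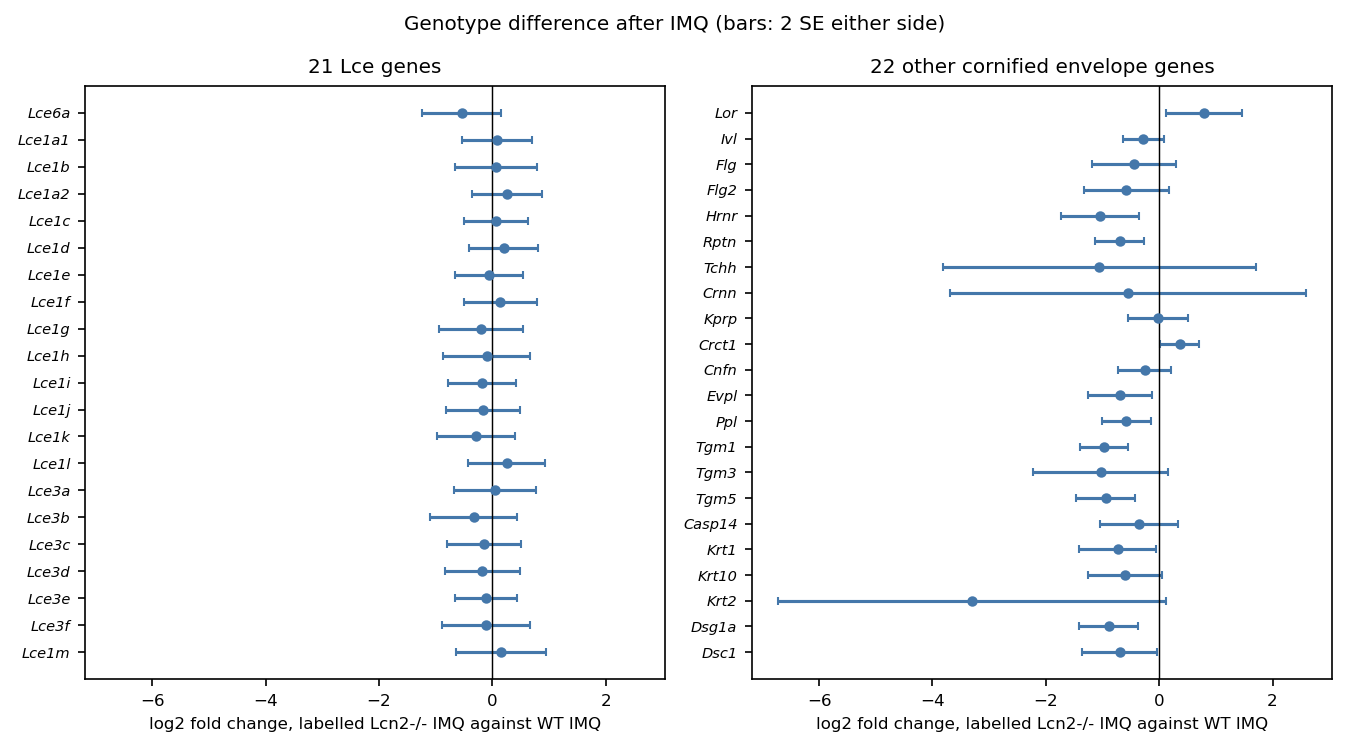
Log2 fold change of IMQ mice labelled Lcn2-/- against WT IMQ mice, with bars of 2 SE either side, for the 21 Lce genes and for 22 other cornified envelope genes. The bars of all 21 Lce genes cross 0. Values are below 0 for 12 of the 21 Lce genes and for 20 of the 22 other genes. Of the 22, 8 had an unadjusted p under 0.05 in edgeR's quasi-likelihood test and none was called.

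Summed over the family, the makeup of Lce transcripts differed between treatments. The 6 *Lce3* genes summed to 4.21, 0.903 and 3.72 CPM in WT control and to 596, 407 and 393 CPM in WT IMQ mice, and to 2.96, 4.37 and 2.41 CPM in control and 389, 307 and 561 CPM in IMQ mice labelled *Lcn2*-/-. They took 0.537 ± 0.327% of all Lce counts in WT control mice, 31.3 ± 5.17% in WT IMQ mice, 0.642 ± 0.409% in control mice and 28.6 ± 10.4% in IMQ mice labelled *Lcn2*-/- (SD, n = 3). The 13 *Lce1* genes without *Lce1m* summed to 385 ± 98.6 CPM in WT control and 985 ± 335 CPM in WT IMQ mice, and to 443 ± 134 and 1017 ± 295 CPM in the other genotype. In WT IMQ mice, mouse 1 had the highest and mouse 3 the lowest of both sums, whereas among IMQ mice labelled *Lcn2*-/- mouse 3 had the highest *Lce3* and the lowest *Lce1* sum. In both genotypes IMQ mouse 3 had the lowest *Lce1* sum, 628 and 784 CPM, and the lowest *Lce1m*, 11.7 and 17.4 CPM. The same mice had the highest *Lce3* share of their group, 37% and 40.5% of Lce counts. The numbers do not pair the mice, which are different animals.

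**Figure D5:**
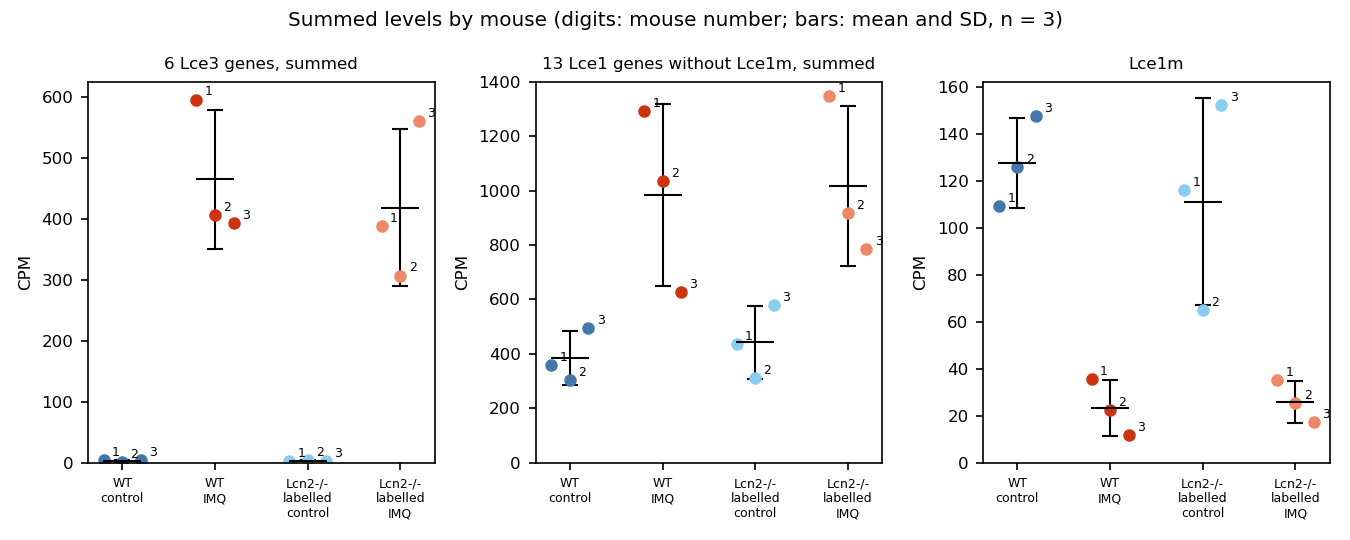
Summed CPM of the 6 Lce3 genes and of the 13 Lce1 genes without Lce1m, and CPM of Lce1m, in each mouse, with digits giving the mouse number and bars the mean and SD of 3 mice. The Lce3 sum is at most 4.37 CPM in control mice and at least 307 CPM in IMQ mice, and Lce1m is at most 35.5 CPM in IMQ mice and at least 64.9 CPM in control mice.

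The mix within *Lce3* also differed. *Lce3c* took 42.5 ± 0.635% of the *Lce3* counts in WT control mice and 23.8 ± 0.702% in WT IMQ mice, and 36.7 ± 3% and 24.2 ± 1.47% in the mice labelled *Lcn2*-/- (SD, n = 3). *Lce3b* took 3.97 ± 3.64% in WT control and 17.7 ± 2.2% in WT IMQ mice, and 4.31 ± 4.66% and 15.2 ± 1.9% in the other genotype. The WT control shares rest on 91, 21 and 70 *Lce3* counts. *Lce3b* shares few long windows with its paralogs and *Lce3c* many, and the part of read assignment in this shift was not tested.

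Other proteins of the cornified envelope give the setting of these changes. Of 22 such genes, 15 rose and 2 fell in WT IMQ mice by edgeR's quasi-likelihood test, with a median log2 fold change of 1.73. Over all genes, 7.15% were called higher and 7.77% lower. *Rptn*, the gene of the matrix protein repetin, rose by 5.54 (adjusted p = 3.64e-07) and *Cnfn*, of cornifelin, by 4.35 (adjusted p = 1.71e-06). Of the transglutaminases that crosslink the envelope, *Tgm3* rose by 4.40 (adjusted p = 0.000928) and *Tgm1* by 3.04 (adjusted p = 4.23e-06). *Flg*, of filaggrin, rose by 3.48 (adjusted p = 0.000126), whereas *Flg2* fell by 2.77 (adjusted p = 0.000467) and *Krt2*, a keratin of the upper epidermis, fell by 4.05 (adjusted p = 0.00647). *Krt2* was at few reads, with 24, 21 and 20 counts in WT control and 0, 0 and 3 in WT IMQ mice, and its log2 fold change was -7.34 without WT IMQ mouse 3. *Lor*, of loricrin, the main protein of the envelope, had a log2 fold change of 0.452 (adjusted p = 0.332). A fall such as that of *Lce1m* was thus also measured for *Flg2* and *Krt2* in the same mice. *Rptn*, with the largest rise of these 22 genes, was below each of the 6 *Lce3* genes in fitted fold change. The *Lce3* fold changes rest on few control reads, whereas mean *Rptn* was at 43.9 CPM in WT control and 2043 CPM in WT IMQ mice. The 22 genes include no small proline-rich gene. Mean *Sprr1b* was at 8.59 CPM in WT control and 1170 CPM in WT IMQ mice. In the mice labelled *Lcn2*-/-, 13 of the 22 rose and 3 fell, with a median of 1.15, and *Lor* rose by 1.84 (adjusted p = 0.00313). There 7.38% of all genes were called higher and 6.27% lower.

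After IMQ, none of the 22 envelope genes was called between the labels with a fold change above 2, but 20 of 22 were nominally lower in the mice labelled *Lcn2*-/-, 8 of 22 had an unadjusted p under 0.05, where 27% of all genes did, and their median log2 difference was -0.646, against -0.1 for the 21 Lce genes and -0.0152 for all genes. *Tgm1* had a log2 difference of -0.970 (adjusted p = 0.0347), under the 2-fold threshold. The IMQ response of *Tgm1* was smaller in mice labelled *Lcn2*-/-, with a difference of -1.57 on the log2 scale (adjusted p = 0.0311). It was the 1 envelope gene called there, where 0.572% of all genes were called lower. That call was lost without any 1 of WT control mice 1 and 2, WT IMQ mice 1 and 3, and, of the mice labelled *Lcn2*-/-, control mice 2 and 3 and IMQ mice 1 and 2 (differences over all mice left out -1.76 to -1.36), and with the replicate number as a block (-1.59, adjusted p = 0.0627). Whether the 22 genes differ from the Lce genes as a group was not tested.

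Cytokines that act on keratinocytes were also counted. Of 12 listed, 11 passed the filter (*Il20* did not), and 10 rose in WT IMQ mice and 6 in IMQ mice labelled *Lcn2*-/-. Over all genes, 7.15% and 7.38% were called higher in these comparisons. *Il36a* rose by 5.06 on the log2 scale (adjusted p = 1.29e-06), *Il36b* by 3.71 (adjusted p = 4.48e-06) and *Il36g* by 3.70 (adjusted p = 2.46e-06) in WT mice. Between IMQ mice of the 2 labels, *Il17c* and *Il24* were lower in the mice labelled *Lcn2*-/-, with log2 differences of -3.29 (adjusted p = 0.0219) and -2.36 (adjusted p = 0.0276), and the IMQ response was smaller there for *Il17f*, *Il17c* and *Il36a*, with differences of -3.54, -5.44 and -1.84 on the log2 scale (adjusted p = 0.0223, 0.0249 and 0.0311). *Il17c* rested on few reads, 33, 28 and 44 counts in WT IMQ and 4, 2 and 4 in IMQ mice labelled *Lcn2*-/-. *Il17f* had only 4, 4 and 2 counts in WT control mice. All 5 calls were lost without any 1 of WT IMQ mice 1 and 3 and of IMQ mice 1 and 2 labelled *Lcn2*-/-, with the highest adjusted p at 0.143 over all mice left out. Leaving out IMQ mouse 3 labelled *Lcn2*-/- also lost both differences between IMQ mice and the response of *Il36a*, and leaving out WT control mouse 1 or control mouse 2 or 3 labelled *Lcn2*-/- lost all 3 responses. Without WT control mouse 2, the responses of *Il17c* and *Il36a* were lost. With the replicate number as a block, *Il24* had an adjusted p of 0.0632, and the responses of *Il17f*, *Il17c* and *Il36a* had 0.0541, 0.061 and 0.061. Over all genes, 0.739% were called lower between IMQ mice of the 2 labels and 0.572% for the difference of responses. The *Lce3* genes had no call in these comparisons.

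Over the 12 libraries, the genes outside the family whose log2 levels followed the summed *Lce3* level most closely were *Sprr1b* (Pearson's r = 0.998), *Stfa2*, *Stfa1*, *BC100530* and *Sprr2h*, the last with r = 0.995. *Sprr1b* and *Sprr2h* encode small proline-rich proteins, and *Stfa1* and *Stfa2* stefin A cysteine protease inhibitors. Mean *Sprr1b* was at 8.59 CPM in WT control, 1170 in WT IMQ, 9.11 in control and 790 in IMQ mice labelled *Lcn2*-/-. For the sum of the 4 *Lce1* genes, *2310050C09Rik*, which lies within the Lce span, came closest (r = 0.937), followed by *Hal* (r = 0.904), the gene of histidine ammonia-lyase, *Hyal4* (r = 0.886), *Sbsn* (r = 0.868), the gene of suprabasin, and *Otud7a* (r = 0.848). These correlations describe 12 libraries that fall into control and IMQ mice, and for *Lce3* they mostly restate that separation.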

How the data were processed

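RNA of back skin from 12 mice was sequenced after ribosomal RNA depletion, as paired reads. The authors deposited 1 table of raw counts per Ensembl gene, without normalization. The submitters' processing notes name HISAT and the mouse build mm8, the paper names DESeq2, and the annotation, the counter and the treatment of reads with several matches are not given in the sources used here. Of 56923 identifiers, 52073 (91.5%) were matched to GENCODE M21 of GRCm38 for names and positions, and the others held 0.567% of counts. mm8 coordinates were not used.

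Counts were normalized by TMM and fitted with edgeR 4.0.16 (limma 3.58.1, R 4.3.3) as 4 group means over all 12 mice, with robust quasi-likelihood tests, and p-values were adjusted by the Benjamini-Hochberg method over 18529 genes, those kept by filterByExpr with its minimum count of 10 and minimum total of 15. The common biological coefficient of variation was 0.253. Each SE is the absolute log2 fold change divided by the square root of the quasi-likelihood F statistic, so it is approximate. For the 10 genes between control and IMQ mice it is given as a description only. Pooled count ratios carry exact binomial 95% intervals, which cover counting error only. The fit was tested on simulated data. Replicates are 3 mice per group, and chi-square tests found no duplicated library. Same-numbered mice are different animals, and their deviations from group means had a mean correlation of -0.0466 (from -0.542 to 0.19 over 18 pairs), so no pairing was used.

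The genes, the lists (cornified envelope, keratinocyte cytokines and 10 sets of cell type markers) and the tests were chosen with earlier results of these data known. Genes named are the 10 listed, the other Lce genes, *Lcn2*, genes of the 2 lists, and the 5 genes most correlated with each sum among those with a mean of at least 1 CPM, on log2(CPM + 0.1). Promoter sequences came from RefSeq (GRCm38.p6), where 20 of 21 Lce genes had an entry, and transcripts from GENCODE M21. Alternatives were RLE size factors, DESeq2 1.42.0, other filters, the compared mice only, the replicate number as a block, each mouse left out, and other call rules. Python 3.11.15 and matplotlib 3.10.9 drew the figures.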

Additional observations from a re-analysis of the deposited data

Results flagged for a closer look

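The genotype-by-IMQ interaction passed an adjusted p of 0.05 in edgeR's quasi-likelihood test for 4 genes of the envelope and cytokine lists, each with a smaller IMQ response in the mice labelled *Lcn2*-/-. The differences of log2 fold changes were -1.57 for *Tgm1*, -3.54 for *Il17f*, -5.44 for *Il17c* and -1.84 for *Il36a*. Control mice labelled *Lcn2*-/- started higher for *Il17f*, at 0.821 to 1.55 CPM against 0.106 to 0.185 CPM in WT control mice. The WT control values of *Il17f* rest on only 4, 4 and 2 counts. For *Il36a* control mice labelled *Lcn2*-/- also started higher, at 16.9 to 18.7 CPM against 5.07 to 8.99 CPM. *Il17c* had 1, 1 and 0 counts in WT control mice and 8, 2 and 2 in control mice labelled *Lcn2*-/-, so its difference rests on few reads.

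For 2 further envelope genes, each WT IMQ mouse lay above the mean log2 level of its controls and each IMQ mouse labelled *Lcn2*-/- below that of its own. For *Dsg1a*, of desmoglein 1, the difference of mean log2 responses was -1.12, and for *Crnn*, of cornulin, it was -3.63. These differences were not tested in that form, and the interaction of the fit had an adjusted p of 0.108 for *Dsg1a* and 0.443 for *Crnn*. *Crnn* was at 36.8, 0 and 17 CPM in WT control mice and 1.61, 179 and 69.6 CPM in control mice labelled *Lcn2*-/-, so its control groups were widely spread. The WT IMQ mice, at 3.82, 3.56 and 5.91 CPM, were below WT control mice 1 and 3, and lay above the mean log2 level only because WT control mouse 2 was at 0. No Lce gene met any of these conditions.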

How the results depend on the processing

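Medians and counts of calls over the family were compared in 5 comparisons, 1 for each alternative. Of these values, 373 stayed within the spread or within 1.5 times the count. The 1 exception was the median *Lce3* log2 fold change of WT mice, 7.80, which lay between 7.33 and 8.43 with each mouse left out. Direction was compared only for medians of more than 2-fold, which kept it. The medians between genotype labels changed sign with a mouse left out. Between IMQ mice they ranged from -0.361 to 0.0904 for the *Lce3* genes and from -0.251 to 0.294 for the *Lce1* genes chosen. Log2 fold changes of *Lce1a1* and *Lce1b* in WT mice lay between 0.806 and 1.24 and between 0.794 and 1.33 with each mouse left out. Requiring 10 counts in every library leaves no *Lce3* gene, so it gave no *Lce3* value.

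With the replicate number as a block, no Lce gene was called between the genotype labels. The log2 difference of *Lce3a* between IMQ mice was then -0.0262 and that of *Lce3c* between control mice 0.0055, both opposite in sign to the values given. In 2 of 18 same-numbered pairs the correlation was over 0.1. DESeq2 on the compared mice gave -0.0407 for *Lce3f* between control mice, also opposite in sign.

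Genotype differences near 0 changed sign with a mouse left out. Between IMQ mice the log2 differences ranged from -0.205 to 0.272 for *Lce1a1*, -0.297 to 0.316 for *Lce1b*, -0.435 to 0.146 for *Lce1g*, -0.166 to 0.604 for *Lce1m*, -0.269 to 0.345 for *Lce3a*, -0.348 to 0.0717 for *Lce3c*, -0.453 to 0.109 for *Lce3d*, -0.299 to 0.115 for *Lce3e* and -0.374 to 0.0454 for *Lce3f*. Between control mice they ranged from -0.00229 to 0.462 for *Lce1a1*, -0.0246 to 0.523 for *Lce1b*, -0.125 to 0.541 for *Lce1g*, -0.493 to 0.0725 for *Lce1m*, -0.104 to 1.25 for *Lce3a*, -0.562 to 2.07 for *Lce3b*, -0.473 to 0.318 for *Lce3c*, -0.208 to 0.566 for *Lce3d*, -0.156 to 0.743 for *Lce3e* and -0.732 to 1.52 for *Lce3f*. The differences of responses ranged from -0.469 to 0.0858 for *Lce1a1*, -0.535 to 0.0879 for *Lce1b*, -1.2 to 0.173 for *Lce3a*, -2.39 to 0.236 for *Lce3b*, -0.463 to 0.35 for *Lce3c*, -0.735 to 0.0599 for *Lce3d*, -0.851 to 0.0464 for *Lce3e* and -1.62 to 0.629 for *Lce3f*. None of these had an adjusted p under 0.05 in any fit. Genes named outside the 10 were put through the alternatives after their values were seen, and *Lce1l* in WT mice changed sign (-0.0888 to 0.553 with each mouse left out). *Tgm1*, *Il17f*, *Il17c*, *Il24* and *Il36a* lost genotype calls as given with them, the cause was not tested, and *Lce6a* in WT mice lost its call without the filter on low counts (adjusted p = 0.104). In control mice the *Lce3* values are limited by depth.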

Other observations

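The genes whose log2 level followed *Lce1m* most closely over the 12 libraries were looked up after its values were seen. They were *Gcnt4* (Pearson's r = 0.974), *Suox* (r = 0.972), *Cobl* (r = 0.969), *Akr1cl* (r = 0.968) and *Miga2* (r = 0.963), none of them a gene of the cornified envelope list. Mean *Cobl* was at 46.9 CPM in WT control, 18.6 in WT IMQ, 49.1 in control and 18.3 in IMQ mice labelled *Lcn2*-/-. Mean *Gcnt4* was at 9 CPM in WT control, 3.31 in WT IMQ, 8.24 in control and 2.95 in IMQ mice labelled *Lcn2*-/-. The libraries fall into control and IMQ mice, and the correlations mostly restate that separation.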
